A study of Mus musculus with 6 samples.

Results

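The transcription factors that build skeletal muscle and the proteins that fuse its precursor cells were followed in mouse tibialis anterior (TA) muscle. The 10 genes were chosen by symbol: the satellite cell factor Pax7, the myogenic regulatory factors Myf5, Myod1, Myog and Myf6, the fusion genes Mymk and Mymx, and the MEF2 factors Mef2a, Mef2c and Mef2d. All 10 symbols were found among the 55401 gene identifiers of the count table, and all 10 had at least 1 count. A filter on low counts kept 17222 genes for testing, among them 8 of the 10. Mymk and Mymx did not pass it and are given by their counts.

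RNA-seq was performed on TA muscle of male C57BL/6 mice carrying the HSA-MCM-Bmal1-/- genotype (iMSBmal1-/-), in which a tamoxifen-inducible Cre under the human skeletal actin promoter deletes Bmal1 in skeletal muscle fibres. All mice received tamoxifen at 2 mg per day for 5 days from an age of 12 to 16 weeks, and the TA was injected 4 weeks later with adeno-associated virus (AAV). The control group received AAV-GFP (n = 3) and the other AAV-RBM20 (n = 3), a vector in which the CMV promoter drives mouse Rbm20, and the muscle was taken 4 weeks later. The comparison asked what added RBM20, an RNA-binding protein that regulates splicing, changed in muscle that lacked the clock factor BMAL1. Both groups carried the knockout, so the comparison does not bear on the loss of Bmal1. The dose of AAV-RBM20 exceeded that of AAV-GFP, and the effects of dose and transgene cannot be told apart. The labels do not say whether each library came from a separate mouse, so p-values measure the spread between these samples. In the study's blots some sample numbers appear under both vectors, marked R for AAV-GFP and L for AAV-RBM20. Whether the libraries were paired in this way is not stated.

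Adult muscle fibres are maintained by satellite cells, the resident stem cells marked by PAX7. When these are activated, MYF5 and MYOD1 commit them to the muscle lineage, myogenin (MYOG) drives their differentiation, and myomaker (MYMK) and myomixer (MYMX) let the resulting myoblasts fuse with each other or with a fibre. MYF6, also called MRF4, is the regulatory factor most abundant in mature fibres, while MYOG and MYOD1 are known to respond to the loss of nerve input and to fibre type. The regulatory factors are basic helix-loop-helix (bHLH) proteins that pair with E proteins and bind the E-box, and MEF2 proteins bind beside them at many muscle promoters.

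Sequence upstream of 2 of the genes is shown to place the E-box, Myog because it had the largest log2 fold change among the 8 tested and Mef2c because it had the highest level per length. The motif searched was CANNTG, which reads the same on both strands in this form, and each match is in capitals. The sequences come from RefSeq on GRCm38.p6, plus strand, at chr1:134289754-134289988 for Myog and chr13:83503784-83504033 for the first of 3 Mef2c windows, and both end before the annotated start of the gene.
Myog: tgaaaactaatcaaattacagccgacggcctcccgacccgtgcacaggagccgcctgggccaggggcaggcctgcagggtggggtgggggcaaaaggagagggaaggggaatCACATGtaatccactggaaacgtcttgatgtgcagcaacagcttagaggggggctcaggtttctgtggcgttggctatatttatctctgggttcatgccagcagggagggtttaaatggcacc
Mef2c: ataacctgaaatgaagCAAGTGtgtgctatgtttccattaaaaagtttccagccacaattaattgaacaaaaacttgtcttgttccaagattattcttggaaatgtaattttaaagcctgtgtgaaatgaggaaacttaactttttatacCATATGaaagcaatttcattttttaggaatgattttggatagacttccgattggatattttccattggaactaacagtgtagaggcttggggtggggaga
The Myog match begins 138 bases before the RefSeq start, and the Mef2c matches begin 234 and 100 bases before theirs. At least 1 E-box was held by 66.2% of the 32851 windows of 250 bases before RefSeq starts and at least 2 by 31.8%, so such a match is common. The whole Myog window of 250 bases, of which 235 are printed, holds 2 matches, and the other 2 Mef2c windows hold 0 and 1. The windows of Pax7, Myf5, Mef2a and Mef2d held no E-box, which says only that these letters are not there.

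Total counts ranged from 41400132 to 54226618 per library. The level of a gene is given as CPM, its count after the library sizes were brought to a common scale by the TMM method. Rbm20 stood at 164 to 170 CPM in AAV-GFP and 406 to 545 CPM in AAV-RBM20, and the count does not separate vector from endogenous transcripts. Bmal1, listed as Arntl, was at 31.0 to 38.1 CPM and 24.5 to 27.6 CPM, counts that cannot show the deletion. The libraries numbered 3 stood apart from their own groups in both groups, with 4.48% and 9.05% of counts on Ttn against 16.9% to 17.8% in the other 4, and with 11.4% to 12.5% on mitochondrial genes against 6.41% to 7.66%. Where a difference named below rested on them, its value without them is given beside it. All 12 markers of mature fast fibres were detected, and their summed level was 130510 to 140263 CPM in AAV-GFP and 88442 to 130993 CPM in AAV-RBM20, with the lowest value in AAV-RBM20 replicate 3. The 8 slow fibre markers summed to only 58.7 to 157 CPM, as in a fast muscle.

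By the quasi-likelihood test of edgeR, none of the 8 tested genes passed an adjusted p of 0.05, against 0% of all genes tested. DESeq2 and limma-voom also called 0 of the 8. Rbm20, the gene carried by the vector, missed the edgeR threshold too. Its groups did not overlap, and its log2 fold change was 1.54 ± 0.15 (SE; edgeR adjusted p = 0.121). Adding replicate number to the edgeR fit gave Rbm20 an adjusted p of 0.0107. Missing the threshold thus does not show that a gene was unchanged. At an unadjusted p under 0.05 were 2 of the 8, Myog with higher and Myod1 with lower values in AAV-RBM20. Of all genes tested, 4.08% and 3.82% were called in these directions. A fit blocked on the replicate number again put Myog and Myod1, and no other member, at an unadjusted p under 0.05, and it called 8.92% of all genes tested as higher and 9.92% as lower. Without the block, the ranges of the groups did not overlap for 3 genes, Myog higher and Myod1 and Myf6 lower, against 7.71% higher and 9.04% lower among all genes tested. The median log2 fold change of the 8 was -0.03, beside 0.01 for all genes tested. In bulk muscle, fewer cells of a type and less RNA per cell cannot be told apart, and this holds for every value below.

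**Figure D1:**
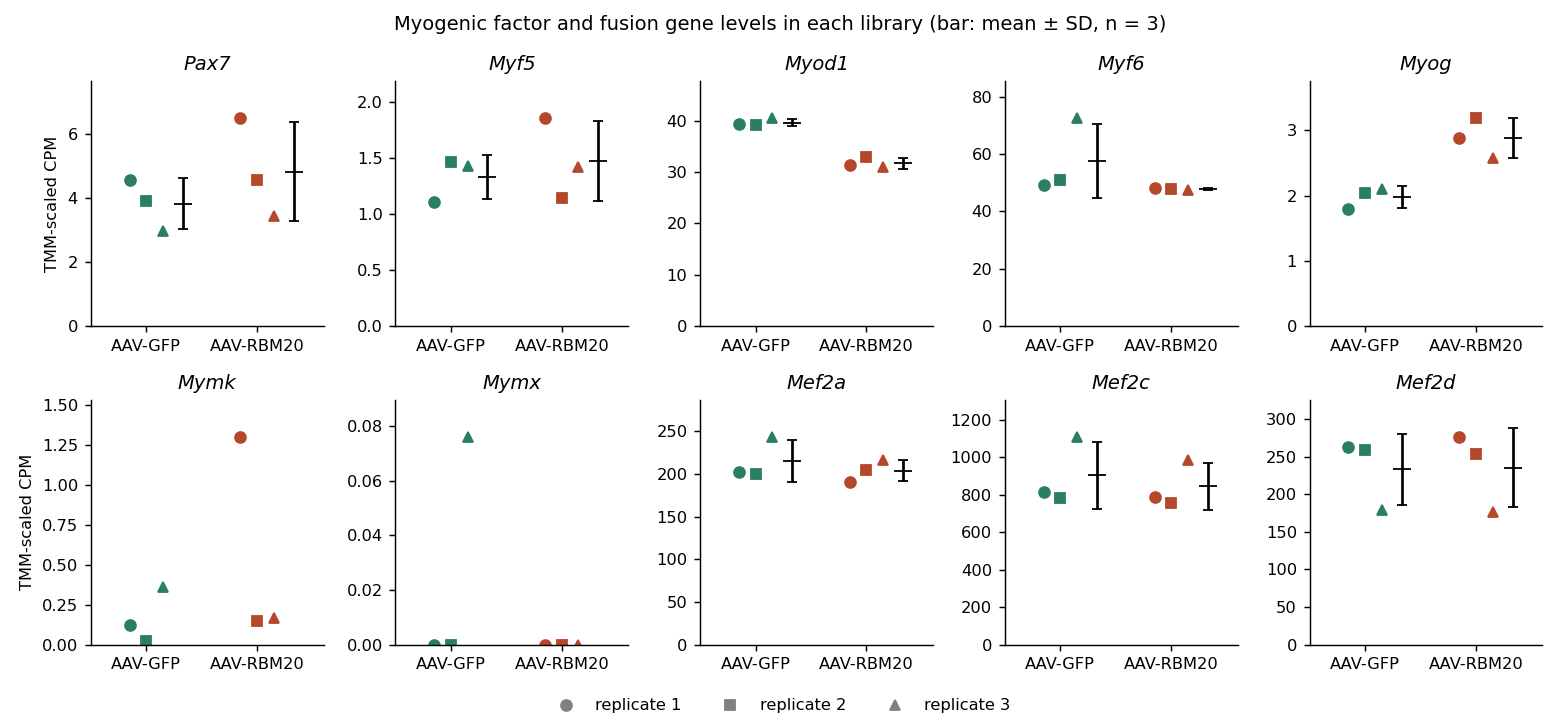
TMM-scaled CPM (y axis, linear from 0) of each of the 10 genes in the AAV-GFP (green) and AAV-RBM20 (red) libraries, with marker shape for the replicate number and a black bar for the mean ± SD (n = 3), which is left out for Mymk and Mymx. Myod1, Myf6 and Myog separate the groups, Mef2c and Mef2d separate the libraries numbered 3 from the others, and Mymk is high in AAV-RBM20 replicate 1.

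Pax7, the paired-box factor of satellite cells (ENSMUSG00000028736; GRCm38 chromosome 4, 139737062 to 139833528, minus strand, 9 merged exons), stood at 4.58, 3.91 and 2.98 CPM in AAV-GFP replicates 1, 2 and 3 and at 6.49, 4.55 and 3.44 CPM in AAV-RBM20 replicates 1, 2 and 3. The groups overlapped, and in both the replicate numbered 1 was highest and the replicate numbered 3 lowest. Each AAV-RBM20 library was above the AAV-GFP library of the same number, in 3 of 3 pairs. Pairs here and below go by the replicate number in the titles, and what it stands for is not stated. Where groups do not overlap, 3 of 3 follows from that alone. On the log2 scale the difference was 0.34 ± 0.27 (SE; edgeR adjusted p = 0.727), and leaving out AAV-RBM20 replicate 1 reduced it to 0.071. Leaving out AAV-GFP replicate 3 gave 0.19, and leaving out AAV-RBM20 replicate 3 gave 0.54. The difference was within the spread between replicates.

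Myf5, the bHLH factor of activated and quiescent satellite cells (ENSMUSG00000000435; chromosome 10, 107482908 to 107486134, minus strand, 3 merged exons), lies 6718 bases from Myf6 on the same strand. It was measured at 1.11, 1.46 and 1.42 CPM in AAV-GFP and at 1.85, 1.14 and 1.42 CPM in AAV-RBM20, from raw counts of 45 to 101. The groups overlapped, and AAV-RBM20 replicate 1 was again the highest library. The difference on the log2 scale was 0.15 ± 0.28 (SE; edgeR adjusted p = 0.889), and it turned to -0.048 without AAV-RBM20 replicate 1. The ratio of Myf5 to Pax7 counts within a library was 0.242, 0.374 and 0.478 in the AAV-GFP libraries, against 0.285, 0.251 and 0.413 in AAV-RBM20, which also overlapped (exact permutation test, two-sided p = 0.8).

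Myod1, which commits precursors to the muscle lineage and is also expressed in fast fibres (ENSMUSG00000009471; chromosome 7, 46376474 to 46379099, plus strand, 3 merged exons), stood at 39.4, 39.1 and 40.5 CPM in AAV-GFP and at 31.3, 32.9 and 31.0 CPM in AAV-RBM20. The 3 libraries of a group lay close together and the groups were far apart relative to that spread. The means were 39.7 ± 0.724 and 31.7 ± 1.05 CPM (SD, n = 3), a ratio of 0.80. Its log2 fold change of -0.32 ± 0.11 (SE) had an edgeR p of 0.0182 before and 0.618 after adjustment. The value was lower in 3 of 3 pairs, and 0.1, the smallest p that 3 against 3 samples allow, was reached in the exact permutation test (two-sided). Over the 18 alternatives in samples, scaling and tool the log2 fold change stayed between -0.38 and -0.28. The lowest adjusted p was 0.0534 (edgeR), reached with both libraries numbered 3 left out. The groups never overlapped, but leaving out libraries cannot make separate groups overlap, apart from the scaling, so this adds little. Markers of mature fast fibres, a fibre type in which Myod1 is expressed, differed alongside it. Of these 12, 10 had a negative log2 fold change, with a median of -0.37, and 4 had ranges that did not overlap and lay lower in AAV-RBM20, Tnnc2, Tnni2, Tnnt3 and Pvalb. At an unadjusted p under 0.05 were 3 of the 12, all lower, and none passed the adjustment. Of all genes tested, 9.04% lay lower without overlap and 3.82% were lower at that p. Of the 8 slow fibre markers, 7 had a positive value, with a median of 0.66. Without both libraries numbered 3, the median of the fast markers was -0.13, with 5 positive and 7 negative. That of the slow markers was then 0.30, with 5 positive and 3 negative. The part of fibre type in the Myod1 value was not tested.

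Myf6, the factor of mature fibres (ENSMUSG00000035923; chromosome 10, 107492853 to 107494737, minus strand, 3 merged exons), stood at 49.2, 51.1 and 72.5 CPM in AAV-GFP and at 48.1, 47.9 and 47.3 CPM in AAV-RBM20. The AAV-RBM20 libraries agreed within 1 CPM, and AAV-GFP replicate 3 stood above all others. The difference on the log2 scale was -0.27 ± 0.17 (SE; edgeR adjusted p = 0.665). The groups did not overlap and the value was lower in 3 of 3 pairs, but the size rested on AAV-GFP replicate 3, without which the log2 fold change was -0.071. With both libraries numbered 3 left out it was -0.055.

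Myog, the differentiation factor (ENSMUSG00000026459; chromosome 1, 134289989 to 134292548, plus strand, 3 merged exons), stood at 1.80, 2.04 and 2.11 CPM in AAV-GFP and at 2.88, 3.18 and 2.57 CPM in AAV-RBM20. Its level was low in every library, from raw counts of 73 to 157, and the lowest AAV-RBM20 value was above the highest AAV-GFP value. The means were 1.98 ± 0.164 and 2.88 ± 0.305 CPM (SD, n = 3), a ratio of 1.45. Its log2 fold change of 0.54 ± 0.21 (SE) had an edgeR p of 0.0318 before and 0.618 after adjustment. The exact permutation p was 0.1 (two-sided). Myog was the higher in 3 of 3 pairs. Over the same 18 alternatives the log2 fold change ranged from 0.46 to 0.67. The groups again never overlapped, with the same limit on what leaving out libraries can show. The unadjusted p was under 0.05 in 10 of the 18. For Myod1 that was so in 14.

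**Figure D2:**
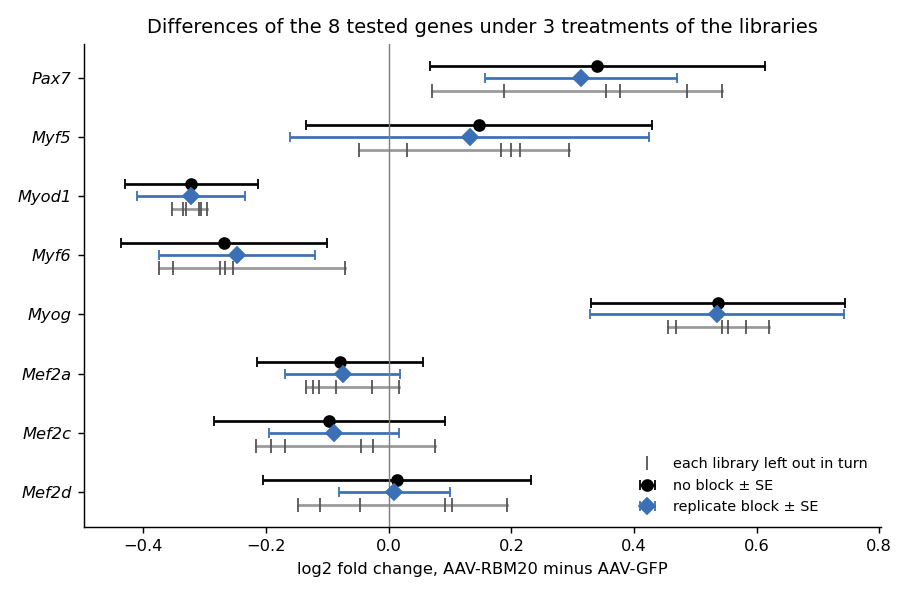
Log2 fold change of AAV-RBM20 against AAV-GFP (x axis) for the 8 tested genes, as fitted without a block (black, ± SE), with the replicate number as a block (blue, ± SE) and with each library left out in turn (grey ticks). Myod1 stays between -0.35 and -0.30 and Myog between 0.46 and 0.62 when libraries are left out, while the ticks of Myf5 and the 3 MEF2 genes lie on both sides of 0.

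Myog and Myod1 differed in opposite directions, so their counts were set against each other within each library, a ratio that no library scaling can change. The ratio of Myog to Myod1 counts was 0.0456, 0.0521 and 0.0521 in the AAV-GFP libraries, against 0.0919, 0.0967 and 0.0831 in AAV-RBM20. The means were 0.0499 ± 0.00374 and 0.0906 ± 0.00688 (SD, n = 3), and the gap between the groups was several times the spread within either. By the exact permutation test (two-sided) p was 0.1, again the lowest it can be, and the means differed by a factor of 1.81, with 1.74 to 1.89 when each library was left out in turn. This pair was chosen with the values of both genes known, so the gap describes them. The ratio of Myf6 to Myod1 counts overlapped between groups, at 1.25, 1.31 and 1.79 in the AAV-GFP libraries, against 1.54, 1.46 and 1.53 in AAV-RBM20 (exact permutation test, two-sided p = 0.7).

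**Figure D3:**
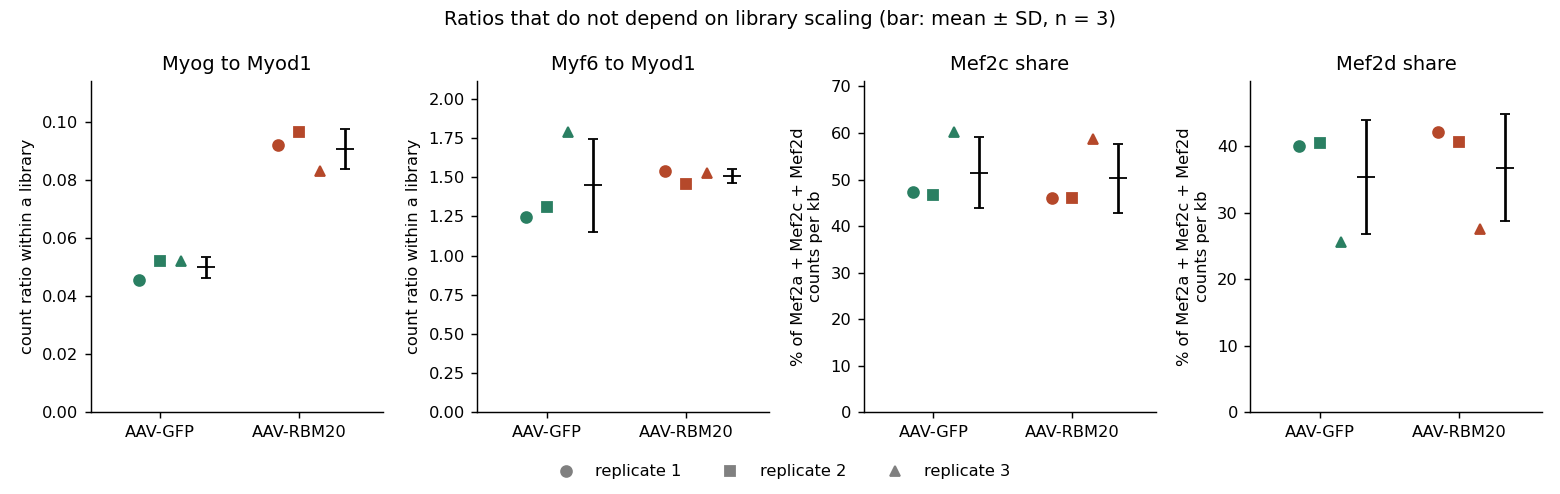
Count ratios within each library (y axes, linear from 0): Myog to Myod1, Myf6 to Myod1, and the shares of Mef2c and Mef2d in the summed MEF2 counts per kilobase, by group (x axis) with marker shape for the replicate number and bars for mean ± SD (n = 3). The Myog to Myod1 ratio lies at 0.0456 to 0.0521 in AAV-GFP and 0.0831 to 0.0967 in AAV-RBM20, and the MEF2 shares set the libraries numbered 3 apart in both groups.

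Mymk, which encodes the membrane protein that makes myoblasts competent to fuse (ENSMUSG00000009214; chromosome 2, 27061636 to 27072179, minus strand, 6 merged exons), had 5, 1 and 19 counts in AAV-GFP and 71, 6 and 8 counts in AAV-RBM20. These are 0.123, 0.0240 and 0.361 CPM against 1.30, 0.149 and 0.165 CPM. AAV-RBM20 replicate 1 alone was above 1 CPM, with an exact Poisson 95% interval of 1.02 to 1.64 CPM that covers counting error only, and the other 5 libraries overlapped between groups. When no filter was applied, the fitted difference was 1.62 ± 1.10 (SE; edgeR adjusted p = 0.761) on the log2 scale, and it was -0.16 without AAV-RBM20 replicate 1.

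Mymx, which encodes the micropeptide that completes fusion (ENSMUSG00000079471; chromosome 17, 45600971 to 45602102, minus strand, 3 merged exons), had 4 counts in AAV-GFP replicate 3 and 0 in the other 5 libraries. With counts of 3 taken as the limit that a count of 0 allows (one-sided, counting error only), the 5 libraries could hold up to 0.0550 to 0.0746 CPM at these depths. The highest count and this limit lie close together, so no difference was detectable at this depth.

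AAV-RBM20 replicate 1 was the highest library for Pax7, Myf5 and Mymk. It was also highest for Myh3, embryonic myosin heavy chain, at 8.38 CPM against 2.54 and 1.87 CPM in the other AAV-RBM20 libraries and 0.646 to 1.44 CPM in AAV-GFP. Myh8, perinatal myosin heavy chain, showed the same order, at 10.4 CPM against 3.98 and 3.81 CPM in AAV-RBM20 and 0.874 to 1.87 CPM in AAV-GFP. Other genes did not show this order. Myog was highest in AAV-RBM20 replicate 2 and Ankrd1, of the embryonic and immature fibre list below, in AAV-RBM20 replicate 3. Pcna, a proliferation marker, was lowest in AAV-RBM20 replicate 1, at 9.81 CPM. The 20 genes of that list summed to 468 CPM in AAV-RBM20 replicate 1 and to 604 CPM in AAV-GFP replicate 2. What set AAV-RBM20 replicate 1 apart was not tested.

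Mef2a, which encodes a MEF2 factor found in most tissues (ENSMUSG00000030557; chromosome 7, 67231163 to 67372858, minus strand, 13 merged exons), stood at 203, 199 and 243 CPM in AAV-GFP and at 191, 204 and 216 CPM in AAV-RBM20. The groups overlapped and differed by -0.08 ± 0.14 (SE) on the log2 scale (edgeR adjusted p = 0.874). Mef2a overlaps Lysmd4 on the opposite strand and 2 other annotated genes on its own, so some of its reads are uncertain.

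Mef2c, the MEF2 factor most tied to skeletal and heart muscle (ENSMUSG00000005583; chromosome 13, 83504034 to 83667080, plus strand, 21 merged exons), stood at 815, 785 and 1109 CPM in AAV-GFP and at 791, 755 and 988 CPM in AAV-RBM20. The library numbered 3 was the highest in each group, and the groups overlapped. The difference on the log2 scale was -0.10 ± 0.19 (SE; edgeR adjusted p = 0.892), and 3 of 3 pairs had the lower value in AAV-RBM20.

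Mef2d, which encodes a MEF2 factor with a muscle-specific splice form (ENSMUSG00000001419; chromosome 3, 88142372 to 88172086, plus strand, 12 merged exons), stood at 262, 259 and 179 CPM in AAV-GFP and at 276, 254 and 177 CPM in AAV-RBM20. Here the library numbered 3 was the lowest in each group. The difference on the log2 scale was 0.01 ± 0.22 (SE; edgeR adjusted p = 0.990). Gene-level counts carry no information on its splice forms, and 1 annotated gene overlaps it on the opposite strand.

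The signs of all 3 MEF2 differences turned without AAV-GFP replicate 3, to 0.017 for Mef2a, 0.076 for Mef2c and -0.15 for Mef2d. Within a library, Mef2c took 47.4%, 46.8% and 60.3% of the summed counts per kilobase of the 3 genes in AAV-GFP, against 45.9%, 46.0% and 58.7% in AAV-RBM20. Mef2d took 40.0%, 40.5% and 25.5% in the AAV-GFP libraries, against 42.2%, 40.6% and 27.5% in AAV-RBM20. The make-up of the MEF2 transcripts thus differed more between the libraries numbered 3 and the others than between groups. These are the libraries with low Ttn and high mitochondrial shares, and the part of those differences in the MEF2 shares was not tested. Mef2b, a family gene outside the 10, was at 0.172 to 0.288 CPM in AAV-GFP and 0.275 to 0.522 CPM in AAV-RBM20.

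Levels of different genes were compared as CPM per kilobase of merged exons. Mef2c was highest at 57.5 ± 11.4 in AAV-GFP and 53.7 ± 8.00 in AAV-RBM20 (SD, n = 3). Myf6 followed at 45.6 ± 10.2 and 37.8 ± 0.323, and Mef2d at 39.0 ± 7.88 and 39.4 ± 8.75, and these 2 did not differ beyond their spread. Myod1 was at 21.3 ± 0.389 and 17.1 ± 0.566, above Mef2a at 14.7 ± 1.66 and 13.9 ± 0.862 in every library. Among the myogenic regulatory factors, Myf6 and Myod1 thus made up most of the transcripts in both groups. Myog lay far lower at 1.32 ± 0.110 and 1.93 ± 0.204. Pax7 at 0.652 ± 0.136 and 0.824 ± 0.263 and Myf5 at 0.639 ± 0.0936 and 0.707 ± 0.171 overlapped each other, and the fusion genes came last. The place of Mef2a depends on the length used, since the longest coding transcript in place of all merged exons raised its mean over the 6 libraries from 14.3 to 37.8, above Myod1 at 19.2, and put Mef2d at 43.4 before Myf6 at 41.7.

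**Figure D4:**
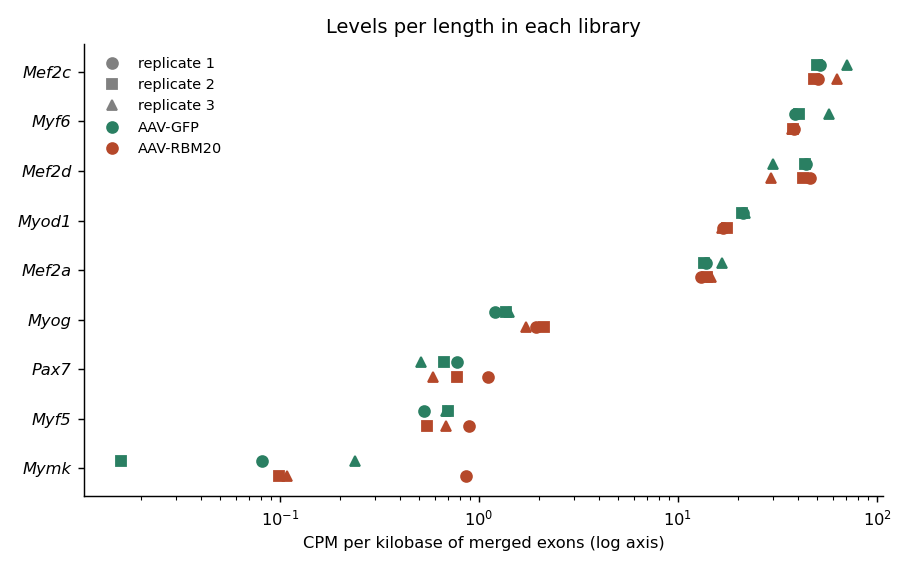
CPM per kilobase of merged exons (x axis, log scale) of 9 of the genes in each library, in order of their mean over the 6 libraries, with color for the group and marker shape for the replicate number. Mymx, at 0 in 5 libraries, is left out. The genes fall into a high set from Mef2a at 13.0 upward and a low set up to Myog at 2.13.

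Genes whose level followed a member over the 6 libraries were sought among 11500 genes by Pearson's r of log2 CPM, as a description without a test. With only 6 libraries, high values arise for many genes, and the libraries numbered 3 set apart many genes at once. Nearest to Pax7 were Pex5 (r = 0.996), Ovgp1 (0.994) and Trim7 (0.992), and nearest to Myod1 were Tubb4b (0.994), Rxrb (0.994) and Ccdc85c (0.992). Nearest to Myog were Glb1 (0.992), Ncam1 (0.991) and Bnc2 (0.975). Nearest to Myf6 were Toe1 (0.998), Zcchc17 (0.996) and Cnih1 (0.996). Ncam1, a cell adhesion molecule of myoblasts and denervated fibres, is also a gene of the fusion list below.

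Around the 10 genes, 5 lists of other genes of the pathway were examined. With all 6 libraries and no block, none of their genes passed the adjusted threshold of 0.05 in edgeR. Counts at an unadjusted p under 0.05 are read against 7.9% of all genes tested. Without both libraries numbered 3, edgeR adjusted p values under 0.05 were reached by Runx1 (0.000978), Ncam1 (0.00539), Mdfi (0.00605) and Hdac9 (0.00692). Cdh15 (0.0336), Sdc4 (0.0410) and Vgll2 (0.0411) also reached it. In that fit 690 of 17250 genes tested passed, and of the lists only genes named below were read. In the list counts, higher and lower mean values in AAV-RBM20 at an unadjusted p under 0.05. All 20 satellite cell and progenitor genes were tested, with 0 higher and 4 lower and a median log2 fold change of 0.09. The 3 of lowest p were Cdh15, the M-cadherin that holds satellite cells to the fibre, Sdc4, a heparan sulfate proteoglycan of satellite cells, and Eya1, a cofactor that acts upstream of the myogenic regulatory factors. Cdh15 was at 22.9, 21.6 and 20.4 CPM in AAV-GFP and 17.3, 16.4 and 12.5 CPM in AAV-RBM20, without overlap (log2 fold change -0.49 ± 0.15 SE). Eya1 was at 39.9, 43.1 and 42.8 CPM against 29.3, 37.8 and 32.8 CPM. These were picked by p from a list in which 12 of 20 genes had a positive log2 fold change. None passed the adjustment with all libraries kept, and their difference from Pax7 was not tested. The count of 4 lower was 1 without AAV-GFP replicate 1 (5.99% of all genes tested), AAV-RBM20 replicate 1 (3.82%) or AAV-RBM20 replicate 3 (5.83%). It was 2 without AAV-GFP replicate 2 (7.89%) and 6 without both libraries numbered 3 (18.5%). In these fits 0 to 2 of the list were higher, and the shares are for either direction.

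Of the 17 bHLH partners and inhibitors, all tested, 2 were higher and 0 lower, with a median log2 fold change of 0.12. Mdfi, an inhibitor that holds myogenic regulatory factors in the cytoplasm, was at 0.566, 0.288 and 0.532 CPM in AAV-GFP and 2.02, 2.39 and 1.5 CPM in AAV-RBM20. Every AAV-RBM20 library was above every AAV-GFP library, though all were low. The log2 fold change of Mdfi in edgeR was 2.08 ± 0.35 (SE; adjusted p = 0.419), and under the replicate block it was 2.07 (adjusted p = 0.0777). Its relative Mdfic was at 13.9 ± 1.81 and 18.4 ± 2.91 CPM (SD, n = 3). Twist2, a bHLH repressor of myogenesis, had a log2 fold change of 0.76 ± 0.36 (SE) at under 1 CPM.

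Of the 20 MEF2 partners and repressors, all tested, 3 were higher and 2 lower, with a median log2 fold change of -0.02. Hdac9, a class II histone deacetylase that represses MEF2, was at 14.0, 13.4 and 15.7 CPM in AAV-GFP and 21.5, 19.8 and 20.3 CPM in AAV-RBM20. Vgll2, a cofactor of TEAD and MEF2 in muscle, was at 28.1, 26.0 and 33.6 CPM against 48.9, 37.4 and 41.2 CPM. Neither overlapped between groups. Srf, serum response factor, was at 59.7, 61.9 and 84.6 CPM against 52.0, 54.9 and 48.5 CPM. The Srf difference of -0.41 (log2) was -0.23 without AAV-GFP replicate 3 and -0.18 without both libraries numbered 3. The other 2 counted were Sik1, a kinase that acts on class II histone deacetylases, at 12.6, 18.4 and 13.1 CPM against 19.7, 22.4 and 17.5 CPM, and Camk2a, a calcium-dependent kinase, at 482, 459 and 431 CPM against 356, 399 and 252 CPM. None of the 5 passed the adjustment with all libraries kept. Hdac9 and Vgll2 did without both libraries numbered 3.

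Of the 28 myoblast adhesion and fusion genes, 24 were tested, and 2 were higher and 0 lower, with a median log2 fold change of 0.18. Ncam1 was at 5.17, 6.28 and 6.61 CPM in AAV-GFP and 10.4, 11.1 and 7.95 CPM in AAV-RBM20 (log2 fold change 0.70 ± 0.18 SE), and did not overlap. Elmo1, an adaptor in the Rac signalling used in fusion, was at 9.52, 10.6 and 5.70 CPM against 12.1, 11.9 and 13.5 CPM. Its log2 fold change of 0.54 rested on AAV-GFP replicate 3, without which it was 0.32. Myof, myoferlin, was at 10.4 ± 1.34 and 14.1 ± 3.24 CPM and overlapped between groups, and its log2 fold change of 0.44 was 0.24 without AAV-RBM20 replicate 3.

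Of the 20 embryonic and immature fibre genes, 19 were tested, and 6 were higher and 0 lower, with a median log2 fold change of 0.42. The 6 were Myh3, Myh8, Tnni1, Sln, Ankrd1 and Runx1. The count was 4 without AAV-RBM20 replicate 1 (3.82% of all genes tested) and 4 without AAV-GFP replicate 1 (5.99%). It was 4 higher and 1 lower without AAV-GFP replicate 3 (11.4%). It stayed at 6 without AAV-GFP replicate 2 (7.89%) or AAV-RBM20 replicate 3 (5.83%). Without AAV-RBM20 replicate 2 it was 7 higher and 1 lower (5.55%). Without both libraries numbered 3 it was 3 higher and 1 lower of 19, where 18.5% of all genes tested were called. AAV-RBM20 replicate 1 was the highest library for Myh3, Myh8, Tnni1 and Sln, and without it their log2 fold changes were 1.05, 1.36, 1.13 and 0.92 in place of 2.00, 2.00, 1.69 and 1.53. Sln, sarcolipin, was at 0.443, 0.671 and 0.475 CPM in AAV-GFP and 2.57, 0.995 and 1.01 CPM in AAV-RBM20. Tnni1, slow troponin I, was at 0.492, 1.25 and 0.323 CPM against 3.59, 1.17 and 1.81 CPM, and Ankrd1, a stress-responsive ankyrin repeat gene, at 9.30, 8.94 and 6.84 CPM against 19.3, 6.92 and 28.5 CPM. The groups overlapped for both, and the Ankrd1 log2 fold change of 1.13 was 0.66 without AAV-RBM20 replicate 3. It was 0.54 without both libraries numbered 3. Runx1, a transcription factor known to be induced in denervated muscle, was at 4.77, 6.01 and 5.95 CPM in AAV-GFP and 13.8, 12.4 and 13.5 CPM in AAV-RBM20. This is a log2 fold change of 1.25 ± 0.15 (SE; edgeR adjusted p = 0.257). With the replicate block it was the only gene of the 5 lists called, at an adjusted p of 0.0271, where 0.145% of all genes tested were called.

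**Figure D5:**
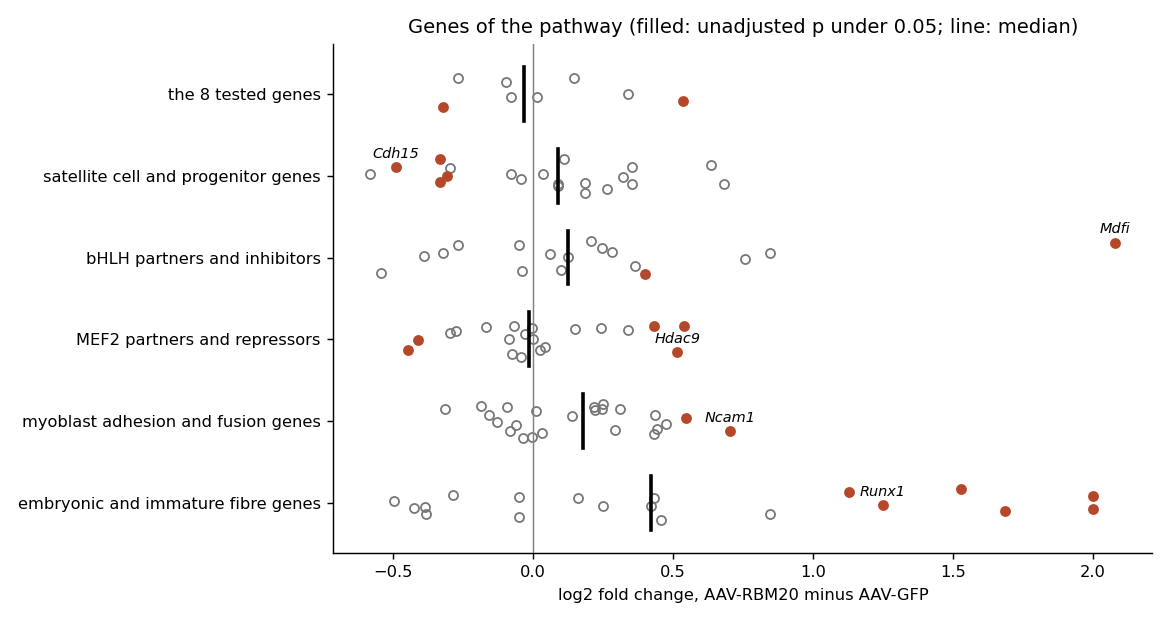
Log2 fold change of AAV-RBM20 against AAV-GFP (x axis) for the 8 tested genes and the tested genes of the 5 pathway lists, with filled red points for an unadjusted edgeR p under 0.05, open points for the rest, black lines for medians and the gene of lowest p named in each list. The 6 filled points of the embryonic and immature fibre list all lie above 1, and no point passed an adjusted p of 0.05 with all libraries kept and no replicate block.

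Markers of other cells differed with the groups in part. All 10 macrophage and monocyte markers had a positive log2 fold change, with a median of 0.80, and their summed level, led by Lyz2 and Mrc1, was 31.9 to 116 CPM in AAV-GFP and 73.6 to 171 CPM in AAV-RBM20. AAV-GFP replicate 3 lay inside the AAV-RBM20 range, but within each of the 3 same-numbered pairs the sum was higher in AAV-RBM20, at 81.4 against 34.8, 73.6 against 31.9 and 171 against 116 CPM. With the replicate block, all 10 were at an unadjusted p under 0.05, where 18.8% of all genes tested were, and without the block 0 of the 10 were. Under the block 1 of the 10, the protease gene Ctss, passed the adjusted threshold (adjusted p = 0.0251 in edgeR). Without both libraries numbered 3, all 10 macrophage and 8 of 10 fibro-adipogenic progenitor markers were higher at an unadjusted p under 0.05 (edgeR). Their median log2 fold changes were 1.19 and 0.63, and 18.5% of all genes tested were called in either direction. Of the endothelial markers 0 were then higher and 2 lower, and of the smooth muscle and pericyte markers 0 were called. With all libraries kept, the summed levels of the other lists overlapped between groups as well. They were 794 to 1723 against 1325 to 1572 CPM for fibro-adipogenic progenitors (10 markers, led by Gsn and Col3a1), 243 to 566 against 375 to 522 CPM for endothelium (10, Cdh5 and Flt1), and 626 to 630 against 595 to 645 CPM for smooth muscle and pericytes (8, Rgs5 and Notch3).

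Proliferation markers (8, Pcna and Mcm2) summed to 20.5 to 28.1 CPM in AAV-GFP and 21.7 to 30.5 CPM in AAV-RBM20, adipocyte markers (6, Fabp4 and Cfd) to 61.5 to 85.2 and 55.5 to 79.1 CPM, and lymphocyte markers (8, Cd4 and Cd3e, 1 of them tested) to 0.467 to 1.39 and 0.846 to 5.37 CPM. Pcna and Mcm2 dominate the proliferation sum. Over the 6 proliferation markers tested the median log2 fold change was 0.78, with 4 positive and 2 negative. At an unadjusted p under 0.05 (edgeR) 2 were higher, Mki67 and Top2a, both low in level, and 0 lower. Of all genes tested, 4.08% and 3.82% were called in these directions. Without AAV-RBM20 replicate 3 the median was 0.31, with 1 higher (5.83% of all genes called in either direction). Without both libraries numbered 3 it was 0.45, with 2 higher (18.5%). Mcm2 lay lower in AAV-RBM20 without overlap, with a log2 fold change of -0.37, and -0.21 without both libraries numbered 3. No marker of these lists was at 0 in all 6 libraries. The slow fibre sum was 58.7 to 111 CPM in AAV-GFP and 99.2 to 157 CPM in AAV-RBM20. The part of these cells in the values of Myog, Myod1 and the other members was not tested.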

How the data were processed

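RNA-seq libraries (ribosomal RNA-depleted, stranded kit, paired reads) came from TA muscle. Per the submitters' notes, HISAT2 (genome mm10) and HTSeq were used for alignment and counting per gene. Tool versions and the strand setting are not given in the sources used here. The deposited count table holds the authors' unnormalised whole-number counts. A second deposited table holds a signal, the counts divided by 1 DESeq2 size factor per library, and was used only to check ratios.

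Total counts were 41400132 to 54226618 per library. GENCODE M21 (GRCm38) named 55141 of the 55401 identifiers. Groups came from the labels and were compared with edgeR 4.0.16 (quasi-likelihood test, robust; filterByExpr with a minimum count of 10; TMM) in R 4.3.3, with Benjamini-Hochberg adjustment over 17222 genes and a threshold of 0.05. For single genes, log2 CPM was permuted exactly (two-sided). The scripts were tested on simulated data. Replicates were checked for duplicates (chi-square per degree of freedom 15.1 to 545).

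Replicate numbers come from the titles. Deviations from group means correlated at 0.519, 0.285 and 0.550 between same-numbered libraries, all above 0.1, and the numbers were taken as pairs. But AAV-GFP 2 correlated with AAV-RBM20 1 at 0.301, above its 0.285 with AAV-RBM20 2. AAV-GFP 1 also correlated with AAV-RBM20 2 at 0.161. The correlations thus do not establish the pairing of the libraries numbered 1 and 2.

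Named genes were the 10, Rbm20 and Bmal1, per pathway list the 3 of lowest p, per marker list the 2 of highest mean CPM, and the 3 most alike to Pax7, Myod1, Myog and Myf6. A few genes were added after their values were seen (Tnni1, Sln, Ankrd1, Sik1, Camk2a, Mef2b, Ctss, Tnnc2, Tnni2, Tnnt3, Pvalb, Mki67, Top2a). Some genes of the lists are not reported here. Genes and lists were chosen with earlier results of these data known. Alternatives were other scalings, filters and tools (DESeq2 1.42.0, limma-voom 3.58.1), the block, and left-out libraries. Leaving out libraries for Mymk, for the gene lists and for the Myog to Myod1 ratio, and the longest transcript as length, were alternatives chosen after seeing the data.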

Additional observations from a re-analysis of the deposited data

How the results depend on the processing

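No member passed an adjusted p of 0.05 under any of the 18 alternatives. The count of all genes past that threshold, 0 without a block, was 25 with the replicate block, 8 with no filter on low counts, 75 with DESeq2, 520 with DESeq2 and the block and 690 with both libraries numbered 3 left out. Leaving out 1 library gave 0 in each case. Members at an unadjusted p under 0.05, 2 as reported, were 1 (Myod1) with no filter and with DESeq2 and the block, and 0 with both libraries numbered 1, or both numbered 2, left out. The shares of all genes tested were 5.83%, 13.7%, 1.97% and 3.69% in that order. With both libraries numbered 3 left out there were again 2, against 18.5%. Members so called ranged from 0 to 2 when each library was left out. There were 0 without AAV-GFP replicate 1 (5.99% of all genes tested) or AAV-RBM20 replicate 1 (3.82%). There was 1 (Myod1) without AAV-GFP replicate 2 (7.89%) or AAV-RBM20 replicate 2 (5.55%). Fewer samples entered those fits. The replicate block changed no other call among the members. Members whose groups did not overlap numbered 3 or 4 throughout, while the share of all genes tested moved from 12.6% with no filter to 49%. The 49% was reached with both libraries numbered 3 left out, where 4 of 8 members did not overlap. With both numbered 2 left out it was 4 of 9, against 35.9%. The steady count is thus no sign of stability.

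With each library left out, the log2 fold change ranged from -0.048 to 0.29 for Myf5, from -0.13 to 0.017 for Mef2a, from -0.22 to 0.076 for Mef2c and from -0.15 to 0.19 for Mef2d. With both libraries numbered 1 left out it was -0.17 for Myf5 and -0.034 for Mef2d. The cause of these changes of sign was not tested. Pax7, Myod1, Myog and Myf6 kept their direction under all 18. With 73 to 157 counts for Myog, and fewer for Mymk and Mymx, depth limits the precision of these genes.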
